A study of Mus musculus with 3 samples.

Results

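The genes of signalling through the immunoreceptor tyrosine-based activation motif (ITAM) were followed in the RNA of apoptotic bodies (ABs), the membrane-bound fragments that dying cells shed. The 8 members were named by gene symbol: the adaptors Tyrobp and Fcer1g, the receptors Trem2, Oscar and Pirb, and the enzymes Syk, Btk and Plcg2. Their transcripts were found in the mRNA table through GENCODE M21, and all 8 had at least 1 transcript there, 25 transcripts of 56651 and 8 genes of 15861. Of these, 8 members passed the limit of 20 reads over the 3 libraries that 12713 genes passed. Tyrobp and Fcer1g are adaptors and Trem2 and Oscar are their receptors, while Pirb is an inhibitory receptor and Syk, Btk and Plcg2 act downstream, so that the genes make up a pathway rather than a set of co-receptors alone.

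The study deposited 3 libraries, 1 per group and without replicates, so that no difference between groups could be set against a spread between samples. BMM-ABs are labelled as coming from bone marrow macrophages, pOC-ABs from preosteoclasts and mOC-ABs from mature osteoclasts. The cells were grown from the bone marrow of 11-week-old C57BL/6 mice. Floating marrow cells were given M-CSF, a growth factor of macrophages, at 50 ng/ml for 72 h to obtain macrophages. Preosteoclasts then received RANKL, the inducer of osteoclasts, at 100 ng/ml with 30 ng/ml M-CSF for 24 h, and mature osteoclasts received the same for 72 h or more. The labels state that alendronate, a bisphosphonate, was added to all cells at 500 μM for 12 h to make them shed ABs, whereas the methods of the paper name staurosporine and a longer time of RANKL. The sample titles name the cells and the design text names the ABs, and the libraries are called ABs here. The 3 comparisons were pOC-ABs over BMM-ABs (G1), mOC-ABs over BMM-ABs (G2) and mOC-ABs over pOC-ABs (G3), and each library enters a pair of them.

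In osteoclast precursors, RANKL alone does not complete differentiation, and a second, costimulatory signal comes from receptors that pair with ITAM adaptors. DAP12, encoded by Tyrobp, and the Fc receptor gamma chain (FcRγ), encoded by Fcer1g, have short cytoplasmic tails with the motif. Src family kinases phosphorylate its tyrosines, the kinase SYK docks there, and phospholipase C gamma then releases the calcium that activates NFATc1, the main transcription factor of osteoclasts. Receptors with the inhibitory counterpart of the motif (ITIM) recruit phosphatases that counteract this signal.

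The coding sequences that define the family are those of the motif itself, shown here because both adaptors are known for it. An ITAM was searched for as a tyrosine followed after 2 residues by leucine or isoleucine, and the same again after 6 to 12 residues. This pattern occurred once in the main coding transcript of each adaptor, with 7 residues between the blocks. It was also found in 6.53% of the 21514 mouse genes whose longest coding sequence of whole codons begins with ATG. The bases are given 5′ to 3′ on the coding strand, with the codons of tyrosine and of leucine in capitals. Codons 92 to 106 of Tyrobp-201 lie in 2 exons at chr7:30415670-30417382 on the plus strand, and codons 65 to 79 of Fcer1g-201 lie in 2 exons at chr1:171229889-171230072 on the minus strand (GRCm38).
Tyrobp: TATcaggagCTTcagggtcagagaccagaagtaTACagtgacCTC
Fcer1g: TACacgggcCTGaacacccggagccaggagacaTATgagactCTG

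The mRNA reads summed to between 7387317 and 9100082 per library, and levels are given as RPM, the reads per 1000000 reads of that total. Values given as a series of 3 without further label follow differentiation, with BMM-ABs first and mOC-ABs last. The deposited FPKM divides the reads by transcript length and by the same total, and it was used wherever different genes are compared. Intervals are 95% intervals and cover counting error only. Markers were read beside the groups. The 9 of 10 osteoclast markers with rows, Oscar among them, summed to 345, 581 and 1870 RPM, with Calcr without a row and Itgb3 at 6, 3 and 0 reads. The 8 macrophage markers summed to 5774, 2764 and 1795 RPM, with Csf1r at 9870, 2640 and 3902 reads and Mertk at 0, 2 and 5. Of the 8 neutrophil, 5 mast cell and 5 erythroid markers 0 had a row, and the B cell, T and NK cell, stromal and megakaryocyte markers summed to at most 2.31 RPM in any library. In such bulk libraries, fewer ABs of a cell type and less RNA per AB cannot be told apart.

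The 8 members together held 1845, 1217 and 1308 RPM. Tyrobp had the highest FPKM of the 8 in every library. Behind it came Trem2, Fcer1g, Plcg2, Syk, Btk, Pirb and Oscar in BMM-ABs. In pOC-ABs Fcer1g stood above Trem2. In mOC-ABs Trem2 stood above Fcer1g again, Syk above Plcg2 and Oscar above Pirb. Some neighbours in this order were close: the FPKM of Btk was 0.994 times that of Syk in pOC-ABs, and the FPKM of Plcg2 was 0.981 times that of Syk in mOC-ABs.

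**Figure D1:**
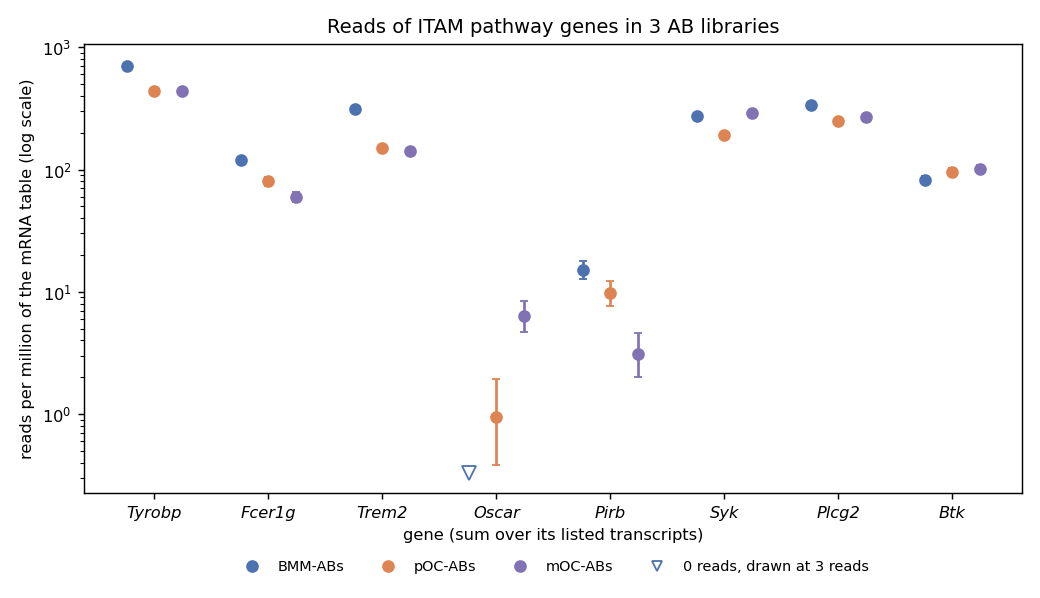
RPM of each gene (log scale) in the BMM-AB, pOC-AB and mOC-AB library, 1 point per library, with exact 95% Poisson intervals for counting error only and an open triangle for 0 reads, drawn at the level of 3 reads. Oscar goes from 0 reads in BMM-ABs to 49 in mOC-ABs, and Pirb, summed over its transcripts, goes the other way, from 138 to 24 reads, although its protein-coding reads go from 0 to 22.

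Of the 8 members, 1 was above 2-fold in G1 and 1 below 0.5, where 4.82% of all genes were above, 6.02% below and 10.8% past either limit. In G2, 1 member was above and 3 were below, beside 4.15%, 8.97% and 13.1% of all genes. In G3, 1 was above and 1 below, beside 3.48%, 6.83% and 10.3%. Oscar was the member above 2-fold in each. It passed the limit of 20 reads only through its 49 reads in mOC-ABs, so that its place above 2-fold in G2 and G3 is partly set by that limit. The members below 0.5 were Trem2 in G1, Fcer1g, Trem2 and Pirb in G2, and Pirb in G3. The median log2 ratio of the members was −0.55 for G1, −0.50 for G2 and 0.05 for G3, and that of all genes was −0.02, −0.05 and −0.05. Scaling to the mRNA and lncRNA tables together moved the median of all genes to −0.22 for G1 and −0.15 for G2, and the share of higher genes among those past 2-fold from 44.5% to 26.8% in G1. Relative to that shift the ratios of the members are unchanged by construction.

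**Figure D2:**
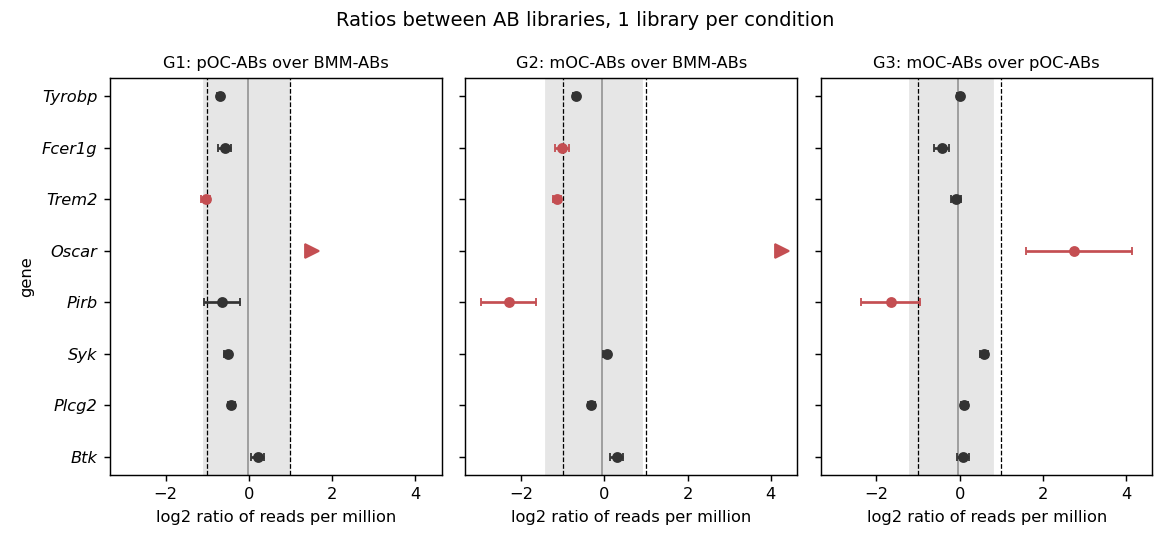
The log2 ratio of RPM of each gene in G1, G2 and G3 with exact binomial 95% intervals for counting error only, where red marks ratios above 2 or below 0.5 (dashed lines), triangles mark lower bounds and the grey band spans the percentiles 5 to 95 of all genes around their median. Oscar lies to the right of the band in all 3 panels, Pirb lies to its left in G2 and G3 in summed reads, where its direction turns with protein-coding transcripts only, and the enzymes Syk, Plcg2 and Btk stay inside it.

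Both adaptors were lower in the ABs of RANKL-treated cells than in BMM-ABs. Tyrobp (chr7:30413760-30417585, plus strand) had 6433, 3230 and 3385 reads, which are 707, 437 and 439 RPM. The BMM-AB library stood above the other two, which were level with each other. The G1 ratio was 0.619 (95% interval 0.593 to 0.645), the G2 ratio 0.621 (0.596 to 0.648) and the G3 ratio 1.005 (0.957 to 1.05). Even so, Tyrobp remained among the most abundant mRNAs, at the FPKM percentile 99.6 of the genes in BMM-ABs and 98.9 in both other libraries.

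Fcer1g (chr1:171229572-171234365, minus strand), the partner of OSCAR, had 1094, 592 and 458 reads, or 120, 80.1 and 59.4 RPM. Unlike Tyrobp, it was lower again in mOC-ABs than in pOC-ABs. Its G1 ratio was 0.667 (0.602 to 0.737), its G2 ratio 0.494 (0.442 to 0.552) and its G3 ratio 0.742 (0.655 to 0.839), so that the interval in G2 spans the 0.5 limit. Within a library, the FPKM of Fcer1g was 0.146, 0.158 and 0.117 times that of Tyrobp. The read ratio of Fcer1g to Tyrobp in mOC-ABs was 0.738 times that in pOC-ABs (0.646 to 0.843). The sum of the 8 macrophage markers given above was also lower in pOC-ABs and mOC-ABs, at 5774, 2764 and 1795 RPM. Lyz2 weighed most in BMM-ABs and pOC-ABs, with 28844, 9854 and 3170 reads. Adgre1, Itgam, Mrc1, Cd14 and Lyz2 were lower in each later library. The other markers did not follow the sum at each step. Cd68 had 6638, 4794 and 5056 reads, Csf1r had 9870, 2640 and 3902, and Mertk had 0, 2 and 5. The part of the lower sum in the lower reads of the adaptors and of Trem2 was not tested.

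Most adaptor reads lay on transcripts that code for protein. Tyrobp-201 held 4050, 1944 and 1917 reads, and Tyrobp-202, annotated without a start codon, held 2306, 1258 and 1404. All 564 bases of Tyrobp-201 are contained in Tyrobp-202, which has 33 more at its ends, so that the division of reads between them rests on few bases. Tyrobp-203, which the annotation calls a target of nonsense-mediated decay, held at most 1.89% of the reads of the gene. Fcer1g-201 held between 97.0% and 97.6% of the reads of Fcer1g. Fcer1g-203, singled out after its values were seen, shares the first 59 codons with Fcer1g-201 and then departs from it, and the ITAM pattern was not found in it. It had 17, 14 and 6 reads, or 1.31% to 2.36% of the gene.

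Trem2, the DAP12-associated receptor of lipids and apolipoproteins, was lower still than Tyrobp in the ABs of RANKL-treated cells, relative to BMM-ABs. Trem2 (chr17:48346401-48354147, plus strand) had 2823, 1116 and 1090 reads, or 310, 151 and 141 RPM. As for Tyrobp, the step lay between BMM-ABs and the other libraries. The G1 ratio was 0.487 (0.454 to 0.522), the G2 ratio 0.456 (0.425 to 0.489) and the G3 ratio 0.936 (0.861 to 1.02), so that the G1 interval spans 0.5 and the G2 interval does not. Set against its adaptor within the library, the FPKM of Trem2 was 0.167, 0.142 and 0.131 times that of Tyrobp. In reads, the Trem2 to Tyrobp ratio of mOC-ABs was 0.734 times that of BMM-ABs (0.676 to 0.797).

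Trem2 had a large share of reads on a transcript that keeps an intron. This transcript of 4784 bases, ENSMUST00000132340, held 1095, 351 and 358 reads, which are 38.8%, 31.5% and 32.8% of the gene. The main coding transcript, ENSMUST00000113237, held 1657, 728 and 708 reads, which are 58.7%, 65.2% and 65.0%. It has 1056 bases, so that shares of reads favour the longer retained intron. In FPKM, which divides by length, the retained intron had 25.2, 9.93 and 9.71 and the main coding transcript 172, 93.3 and 87.0. By FPKM the main coding transcript held 84.1%, 86.4% and 87.3% of the gene. In RPM the retained intron was 0.395 times as high in pOC-ABs as in BMM-ABs (0.349 to 0.446), and the main coding transcript was 0.541 times as high (0.495 to 0.591). Another coding transcript, ENSMUST00000024791, was singled out after its values were seen and held 69, 36 and 23 reads, or 2.11% to 3.23%. The coding transcripts have the same first 161 codons. They then differ by 55 coding bases that the main coding transcript alone contains, printed here because they separate the transcript with most coding reads from the shorter one. Since 55 is not a multiple of 3, the reading frame differs from there on, and the main transcript ends after 249 codons and the other after 227. The bases lie at chr17:48351691-48351745 on the plus strand and are in capitals, with 12 bases of the transcript on each side.
Trem2 main coding transcript: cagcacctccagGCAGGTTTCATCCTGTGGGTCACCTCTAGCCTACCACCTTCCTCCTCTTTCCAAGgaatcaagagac

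Oscar, the FcRγ-associated receptor of collagen that is known as an osteoclast gene, went in the other direction. Oscar (chr7:3609813-3616157, minus strand) had 0, 7 and 49 reads, or 0, 0.948 and 6.36 RPM. A count of 0 among 9100082 reads allows a share of up to 3.30e-05%. Against that limit of 3 reads in the BMM-AB library, Oscar was at least 2.87-fold higher in pOC-ABs and at least 19.3-fold higher in mOC-ABs, without the counting error of the 7 and 49 reads. The exact 95% interval of the ratio to 0 reads began at 1.78 in G1, under the 2-fold limit, and at 15.1 in G2. In G3 it was 6.71-fold higher (3.02 to 17.6). All of its reads were on Oscar-202, which codes for 265 residues.

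Oscar was also higher relative to its adaptor. The FPKM of Oscar was 0.00433 times that of Fcer1g in pOC-ABs and 0.0391 times in mOC-ABs, and the ratio of their reads was 9.05-fold higher in mOC-ABs (4.02 to 23.9). Oscar nevertheless stayed a minor mRNA, at the FPKM percentile 20.3 in mOC-ABs. Of the other osteoclast markers, Acp5, the tartrate-resistant acid phosphatase, had 88, 292 and 2157 reads and Ctsk, the collagen-degrading cathepsin K, had 180, 171 and 1001, while Itgb3 was near 0 throughout. Their part in the higher Oscar reads was not tested.

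Pirb, the paired immunoglobulin-like receptor B that restrains ITAM signalling in osteoclast precursors, was lower in each later stage when all its transcripts were summed. Pirb (chr7:3711409-3720391, minus strand) had 138, 72 and 24 reads, or 15.2, 9.75 and 3.11 RPM. Its G1 ratio was 0.643 (0.476 to 0.861), its G2 ratio 0.205 (0.127 to 0.318) and its G3 ratio 0.320 (0.192 to 0.513), and with protein-coding transcripts only the direction turned in all 3 comparisons. The reads lay on different transcripts in each library. Pirb-205, a retained intron, held 92, 1 and 2 reads. Pirb-203, another retained intron, held 8, 53 and 0, and Pirb-202, also one, held 38, 0 and 0. The coding Pirb-201 held 0, 18 and 22 reads, which is 0%, 25% and 91.7% of the gene.

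The Pirb total and its coding share thus gave opposite orders of the libraries, from 234 reads over 4 overlapping transcripts. Pirb-201 shares 2416 to 2696 bases with each of the other 3, and the genes of the paired receptors are near-identical copies, so that the values of Pirb and of its activating relative Pira2 are uncertain. In coding reads, Pirb-201 was at least 7.39-fold higher in pOC-ABs and at least 8.66-fold higher in mOC-ABs than 3 reads in the BMM-AB library, with exact 95% intervals that began at 5.42 and 6.47, and 1.17 times as high in mOC-ABs as in pOC-ABs (0.6 to 2.32). An ITIM was searched for as isoleucine, valine, leucine or serine, any residue, tyrosine, 2 further residues, and isoleucine, valine or leucine. The pattern matched Pirb-201 in 4 places and at least once in 49.1% of the 21514 genes, so that a match is common. It also matched the activating adaptors, at codons 90 to 95 of Tyrobp-201, within and just before the ITAM, and at codons 41 to 46 of Fcer1g-201, and it matched the coding transcript of Plcg2 in 2 places. The last 2 matches, which lie near the end of the 841 codons, are shown beside the adaptor motif, with the codons of the fixed residues in capitals. They are codons 792 to 797 at chr7:3712786-3712803 and codons 822 to 827 at chr7:3712696-3712713, both on the minus strand.
Pirb codons 792 to 797: GTGaccTATgcccagCTG
Pirb codons 822 to 827: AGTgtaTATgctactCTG

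Oscar and Pirb lie 95251 bases apart on chromosome 7 and on the same strand, and in gene sums they had the highest and the lowest G2 ratio of the members. With protein-coding transcripts only, the log2 ratio of Pirb in G2 was 3.11, so that both were higher in mOC-ABs than in BMM-ABs. The 250 bases before the start of each gene are shown for these neighbouring receptors (RefSeq, GRCm38.p6, minus strand), at chr7:3616158-3616407 for Oscar and chr7:3720383-3720632 for Pirb. Capitals mark GAGGAAG or its complement CTTCCTC, bound by PU.1, a factor of myeloid cells, and CATGTG or its complement CACATG, an E-box bound by MITF. Both strands of the 250 bases before the start were searched, here and in all promoters, and no marked match overlaps another. Each promoter held 1 match of either kind, while 10.6% of 32851 mouse promoters hold the PU.1 letters and 12.3% the E-box.
Oscar: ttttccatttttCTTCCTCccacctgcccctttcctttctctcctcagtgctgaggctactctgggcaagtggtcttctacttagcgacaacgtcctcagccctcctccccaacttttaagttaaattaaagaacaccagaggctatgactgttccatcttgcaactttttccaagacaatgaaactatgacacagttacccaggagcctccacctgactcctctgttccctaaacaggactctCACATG
Pirb: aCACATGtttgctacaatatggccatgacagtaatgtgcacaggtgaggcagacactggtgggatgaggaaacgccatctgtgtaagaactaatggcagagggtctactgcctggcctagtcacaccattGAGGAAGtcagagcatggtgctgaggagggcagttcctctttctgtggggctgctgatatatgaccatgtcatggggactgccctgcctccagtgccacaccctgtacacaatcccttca

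Of the 7 members with a promoter entry, Trem2 held 1 match of GAGGAAG as well, and Fcer1g, Syk, Plcg2 and Btk held 0 of either motif. The palindromic E-box CACGTG, found in 6.02% of all promoters, had 1 match, in Plcg2. The core GGAAA of NFAT sites or its complement TTTCC, found in 55.6%, had 3 matches in Oscar and Trem2, 2 in Plcg2, and 1 in Pirb, Fcer1g, Btk and 1 of the Syk entries. The GGAAA match of Trem2 nearest to its start overlaps the PU.1 letters by 1 base. Matches are letters in a window and not binding sites.

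The enzymes Syk, Plcg2 and Btk stayed within 2-fold in G1, G2 and G3. Syk (chr13:52583173-52648792, plus strand), the kinase that docks on the phosphorylated ITAM, had 2512, 1429 and 2216 reads, or 276, 193 and 288 RPM. It was lowest in pOC-ABs, with a G1 ratio of 0.701 (0.656 to 0.748), a G2 ratio of 1.04 (0.984 to 1.10) and a G3 ratio of 1.49 (1.39 to 1.59). The G2 ratio turned below 1 when both tables were used for scaling.

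Plcg2 (chr8:117498291-117635142, plus strand) encodes phospholipase C gamma 2, which cleaves a membrane lipid to start the calcium signal. It had 3046, 1845 and 2083 reads, or 335, 249.8 and 270.3 RPM, all on 1 coding transcript of 1265 codons. The G1 ratio was 0.746 (0.704 to 0.791), the G2 ratio 0.808 (0.763 to 0.854) and the G3 ratio 1.08 (1.02 to 1.15), so that Plcg2 too was lowest in pOC-ABs. Btk (chrX:134542336-134583570, minus strand), a Tec family kinase that acts with SYK on phospholipase C gamma, had 747, 702 and 776 reads, or 82.1, 95 and 101 RPM. It was the only member other than Oscar with a ratio above 1 in G1, G2 and G3, at 1.16 (1.04 to 1.29), 1.23 (1.11 to 1.36) and 1.06 (0.956 to 1.18), although with protein-coding transcripts only it was below 1 in G2 and G3. The pseudogene Gm15154 lies within Btk on the other strand, and whether the counting used strand is not given in the sources used here.

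The balance between the enzymes and the adaptor differed between the libraries. The FPKM of Syk was 0.0513, 0.0520 and 0.0843 times that of Tyrobp. In reads, the Syk to Tyrobp ratio was 1.68-fold higher in mOC-ABs than in BMM-ABs (1.56 to 1.80). The FPKM of Btk was 0.0286, 0.0516 and 0.0617 times that of Tyrobp, and the ratio of their reads was 1.97-fold higher in G2 (1.77 to 2.20). For Plcg2 the FPKM was 0.0634, 0.0766 and 0.0827 times that of Tyrobp. These ratios within a library do not depend on its total, but they are mRNA ratios in ABs and give no protein level.

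Syk was read from several transcripts. Syk-203 held 1968, 1327 and 1765 reads, or 78.3%, 92.9% and 79.6% of the gene. Syk-204, a retained intron, held 255, 62 and 112 reads. Syk-202, singled out after its values were seen, held 82, 20 and 191 reads, so that its ratio to Syk-203 was 0.0417, 0.0151 and 0.108. That ratio was 7.18-fold higher in mOC-ABs than in pOC-ABs (4.49 to 12.1) and 2.60-fold higher than in BMM-ABs (1.98 to 3.43). Syk-201, also singled out after its values were seen, codes for 629 residues as Syk-203 does and held 149, 11 and 112 reads, and its ratio to Syk-203 was 7.66-fold higher in G3 as well (4.09 to 15.8). The difference in G3 was thus not particular to the shorter form. Syk-202 lacks an exon of 69 bases, which are 23 codons, and ends earlier. The exon is printed because it tells the transcripts of SYK apart by length, in capitals with 12 bases of Syk-203 on each side, at chr13:52624708-52624776 on the plus strand. A shorter form of the kinase, known as SYK-B, lacks an insert in the linker between the SH2 domains and the kinase domain.
Syk-203: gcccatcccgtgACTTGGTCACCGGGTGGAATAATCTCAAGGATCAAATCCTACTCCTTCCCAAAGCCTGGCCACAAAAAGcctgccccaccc

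Syk-202 also lacks the last 70 coding bases of Syk-203, so that it codes for 583 residues against 629. Its 2519 bases include 559 that are not in Syk-203, and the 1960 shared bases leave the division of reads to a model whose error the intervals do not include.

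Btk differed between the libraries in a transcript that keeps an intron. Btk-201, the coding transcript, held 682, 686 and 543 reads. Btk-204, a retained intron, held 53, 8 and 214, which are 7.10%, 1.14% and 27.6% of the gene. In RPM, Btk-201 was 0.940 times as high in mOC-ABs as in BMM-ABs (0.838 to 1.05), whereas Btk-204 was 4.77-fold higher (3.52 to 6.57). The ratio of Btk-204 to Btk-201 was 5.07-fold higher in G2 (3.65 to 7.13) and 33.8-fold higher in G3 (16.6 to 79.9). Of the 1920 bases of Btk-204, 194 are not in Btk-201.

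**Figure D3:**
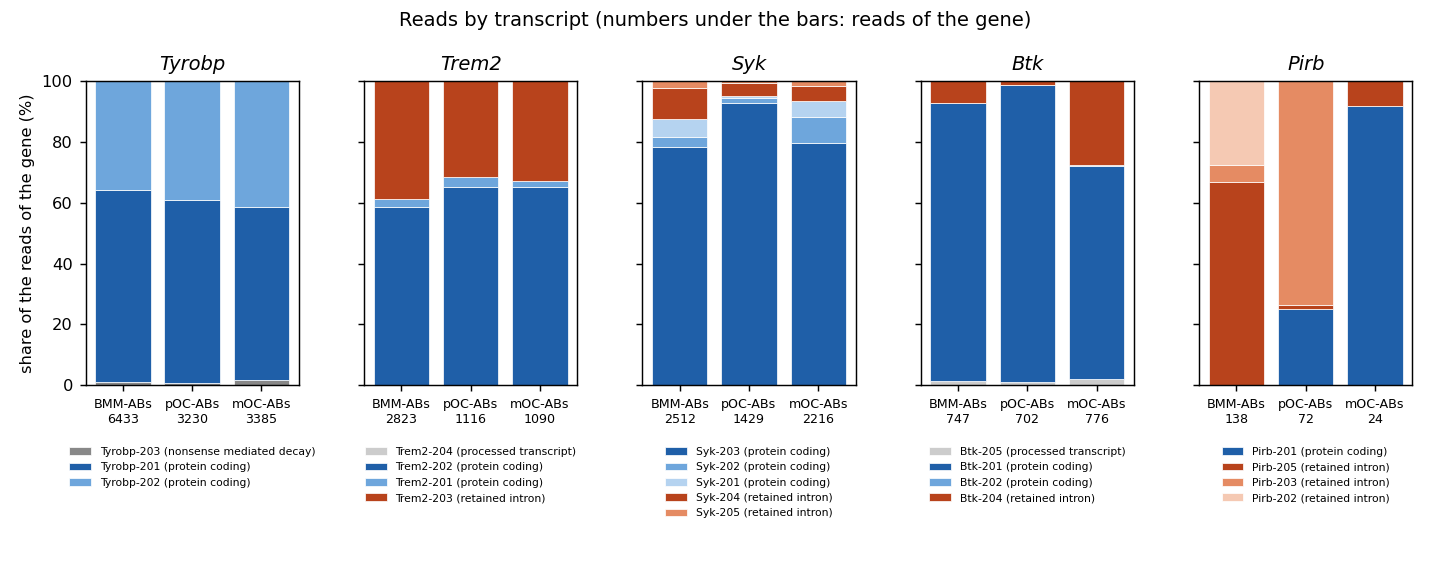
Share of the reads of a gene (%) on each of its listed transcripts in the 3 libraries, for the 5 genes with more than 1 transcript of note, with the reads of the gene under each bar, blue for protein-coding and red for retained-intron transcripts. The red share of Btk is highest in mOC-ABs at 27.6%, that of Trem2 is highest in BMM-ABs at 38.8%, and Pirb goes from retained introns alone to 91.7% coding, on 138, 72 and 24 reads. The shares are of reads and are not divided by transcript length.

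Over the 8 members, retained-intron transcripts held 9.59%, 5.43% and 7.21% of the reads. Over all annotated transcripts of the mRNA table the shares were 5.23%, 4.21% and 3.85%. Of the 1610, 488 and 727 retained-intron reads of the members, 1095, 351 and 358 were on Trem2. The pooled share thus rests in large part on the long transcript of that gene and is not a trait of the members as a set. Single transcripts passed 2-fold far more often than gene sums. Of the 23 member transcripts with at least 20 reads, 13 passed in G1, 11 in G2 and 9 in G3, beside 35.9%, 37.7% and 34.9% of the 34650 transcripts tested in the same way.

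The wider pathway was read from 9 lists with 95 genes, of which 71 passed the read limit, 7 had fewer reads and 17 had no row. G1 had 3 above 2-fold and 9 below 0.5, G2 had 4 and 18, and G3 had 6 and 12. The median log2 ratio of the 71 genes was −0.35, −0.41 and −0.06. Past the limits were thus 16.9%, 31.0% and 25.4% of the pathway genes, beside 10.8%, 13.1% and 10.3% of all genes. The lists were chosen with earlier results of these data known, so that the higher shares are not independent of the data and describe these lists only. The 3 comparisons share libraries, and G2 and G3 share the mOC-AB library.

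The receptors that pair with FcRγ were mostly lower in mOC-ABs. Of 8 tested, 0 passed 2-fold in G1, and 5 were below 0.5 in G2 and the same number in G3. The share of all genes below 0.5 was 8.97% in G2 and 6.83% in G3. Fcgr1, the high-affinity receptor of IgG, had 227, 95 and 31 reads, with a ratio of 0.161 in G2 (0.107 to 0.235). Fcgr3, an activating IgG receptor of lower affinity, had 312, 139 and 52 reads and a ratio of 0.197 in G2 (0.144 to 0.265). Clec4e, the receptor Mincle of mycobacterial glycolipids, had 214, 221 and 17 reads, with a G1 ratio of 1.27 (1.05 to 1.54) and a G3 ratio of 0.0737 (0.0422 to 0.121). Clec4n (Dectin-2) had 7, 11 and 2 reads and Pira2, the activating relative of Pirb, had 26, 16 and 6. The G2 ratio of Clec4n was 0.337, with an interval that spans 1 (0.0342 to 1.77). Of the 8 other FcRγ partners, 0 were above 2-fold in G2 or G3, where Oscar was. With 4.15% of all genes above in G2 and 3.48% in G3, 0 of 8 does not set Oscar apart from them.

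The receptors that pair with DAP12 differed among themselves. Of 5 tested, 1 was above 2-fold in each comparison, and 0, 2 and 1 were below 0.5 in G1, G2 and G3. Among all genes, 4.82%, 4.15% and 3.48% were above and 6.02%, 8.97% and 6.83% below. A count of 1 in so short a list says little beside these shares. Siglec15, a sialic acid receptor of osteoclasts, had 11, 10 and 38 reads and was 4.08-fold higher in G2 (2.04 to 8.85) and 3.64-fold in G3 (1.78 to 8.20). Cd300ld, a myeloid receptor of the CD300 family, had 1069, 468 and 360 reads and a ratio of 0.398 in G2 (0.352 to 0.449). Trem3, a relative of Trem2, had 8, 23 and 2 reads and passed the read limit only through pOC-ABs. Its G1 ratio was 3.54 (1.53 to 9.16) and its G3 ratio 0.0834 (0.00953 to 0.337). The G2 ratio of Trem3 was 0.295, with an interval that spans 1 (0.0305 to 1.48). Clec7a, the β-glucan receptor Dectin-1 with a hemITAM, had 214, 136 and 56 reads and was below 0.5 in G2 and G3. Fcgr2b, listed with it although it is an inhibitory IgG receptor with an ITIM, had 272, 83 and 42 reads and was below 0.5 in all 3 comparisons.

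Among the Src family kinases, which phosphorylate the ITAM, and their regulators, 1 of 8 was above 2-fold in G2 and in G3. Below 0.5 were 1, 3 and 1 in G1, G2 and G3. Of all genes, 4.15% were above in G2 and 3.48% in G3, and 6.02%, 8.97% and 6.83% were below in G1, G2 and G3. A count of 1 in a list of 8 says little beside these shares. Src, required for the ruffled border of osteoclasts, had 118, 178 and 962 reads, a ratio of 9.63 in G2 (7.95 to 11.8) and 5.18 in G3 (4.41 to 6.11). The myeloid kinase Fgr went the other way, with 553, 325 and 132 reads and a ratio of 0.282 in G2 (0.231 to 0.341). Pag1, an adaptor that anchors the kinase CSK, had 439, 161 and 119 reads and a ratio of 0.320 in G2 (0.259 to 0.393).

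The genes that act after SYK passed the limits at shares below or near those of all genes, which were 10.8%, 13.1% and 10.3%. Of 9 scaffolds and adaptors, 1 was below 0.5 in G1, 0 passed in G2 and 1 was above 2-fold in G3. Each time it was Lat, a scaffold better known from T cells, with 20, 5 and 11 reads. Its ratio was 0.308 in G1 (0.0903 to 0.846) and 2.11 in G3 (0.676 to 7.74), where the interval spans 1. Of 13 downstream enzymes, 0 passed in G1 and G2 and 1 was above 2-fold in G3, namely Vav2, a guanine nucleotide exchange factor, with 197, 125 and 268 reads. Tec was the kinase of its list with enough reads, and it stayed within 2-fold.

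Of 19 inhibitory receptors and regulators, G1 had 2 above 2-fold and 5 below 0.5, G2 had 1 and 5, and G3 had 0 and 2. Among all genes, 4.82%, 4.15% and 3.48% were above in G1, G2 and G3, and 6.02%, 8.97% and 6.83% below. The 5 lower genes were the ITIM receptors Lilrb4a (2251, 843 and 419 reads), Cd300a (1365, 362 and 461), Cd300lf (168, 36 and 50), Ceacam1 (158, 59 and 29) and Siglece (39, 13 and 8), in G1 and in G2, which share the BMM-AB library. Lilrb4a had a ratio of 0.461 in G1 (0.426 to 0.4995) and 0.22 in G2 (0.198 to 0.244). Clec4a2, a lectin receptor with an ITIM, had 33, 54 and 84 reads and was 3.01-fold higher in G2 (1.99 to 4.64). Pilra, with 6, 13 and 10 reads, was at 2.67 in G1 (0.946 to 8.56), an interval that spans 1, and at 1.97 in G2. Pirb had the same direction as the 5 when its transcripts were summed.

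Of 5 ligands and partners of TREM2 and PIR-B, 1 was above 2-fold in G2 and 2 in G3. The share of all genes above was 4.15% in G2 and 3.48% in G3. Apoe, a ligand of TREM2, had 78, 46 and 131 reads, with a ratio of 2.73 in G3 (1.94 to 3.91). Angptl2, a secreted ligand of PIR-B, had 54, 47 and 105 reads and was 2.30-fold higher in G2 (1.64 to 3.25). Sema6d, a ligand of plexin A1, had 14, 4 and 2 reads and was below 0.5 in all 3 comparisons, with a G3 interval of 0.0434 to 3.34. The part of the lower sum of macrophage markers in the pathway ratios was not tested.

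**Figure D4:**
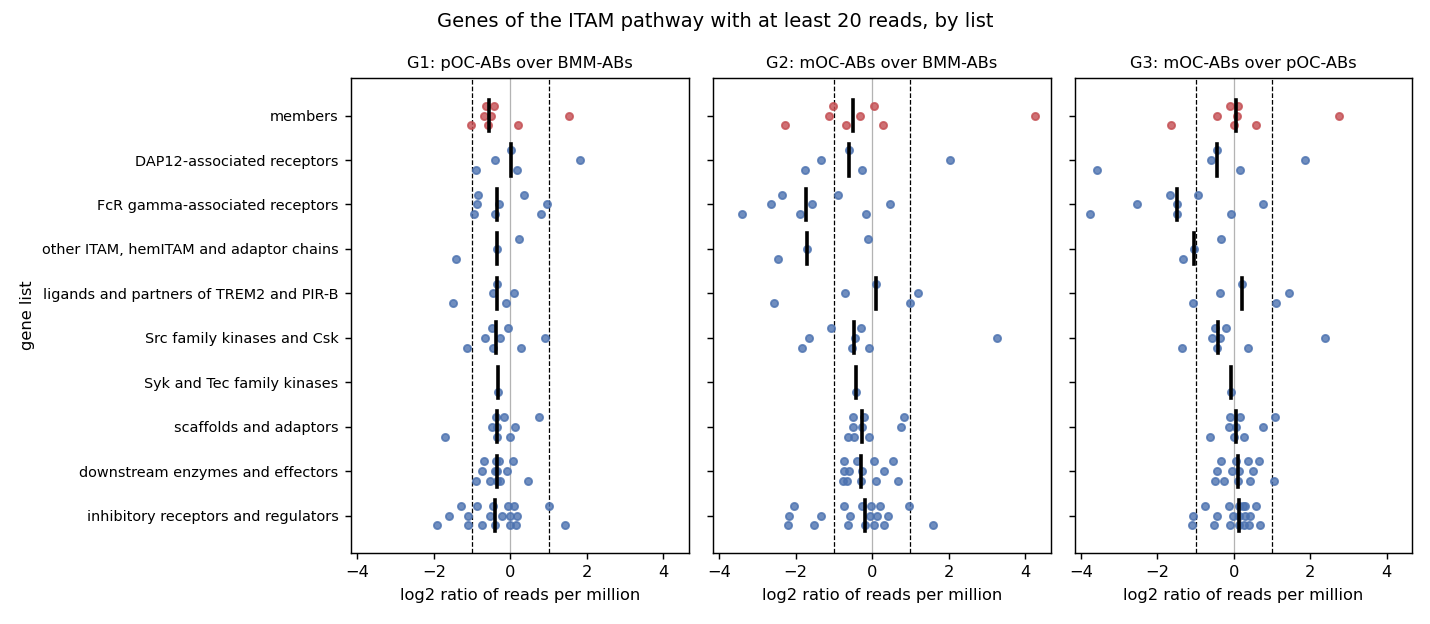
The log2 ratio of RPM of each gene with at least 20 reads in G1, G2 and G3, grouped by list, with the 8 members in red, the list median as a black bar and the limits 0.5 and 2 as dashed lines. The FcRγ-associated receptors have the lowest medians in G2 and G3, at −1.72 and −1.48, while those of the scaffolds and downstream enzymes lie between −0.36 and 0.10.

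For Fcer1g, Trem2 and Pirb, the genes with the most similar pair of G1 and G2 log2 ratios were sought among 10824 genes with at least 100 reads. With 3 libraries such likeness rests on 2 independent ratios, and many genes share a common pattern. For Fcer1g 252 genes lay within a distance of 0.25 and for Trem2 132, with Tedc1, Rassf4 and Zfp182 nearest to Fcer1g and Chst3, Arl10 and Slc9a8 nearest to Trem2. For the summed reads of Pirb 16 genes lay so near, and the nearest were Atf3 (2312, 1194 and 415 reads), Rcsd1 (551, 288 and 101) and Inka1 (103, 57 and 19). These do not describe the coding reads of Pirb, whose log2 ratios were 2.89 in G1 and 3.11 in G2. Oscar, with 0 reads in BMM-ABs, has bounds in place of these ratios, and no like genes are given for it. No transcript of the lncRNA table overlapped a member locus, and no listed circRNA had a member as its host gene.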

How the data were processed

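RNA of ABs was sequenced from 3 libraries, 1 per group. The methods of the paper describe paired-end libraries, and the submitters' processing notes name FastQC, HISAT2, StringTie and GRCm38. Their versions, the counting tool and its settings are not given in the sources used here. The authors deposited counts of reads per transcript and FPKM for mRNAs and lncRNAs, and counts of junction reads and a signal (SRPBM) for circRNAs. The lncRNA table also holds the deposited length of each transcript, an other unit in bases. Multiplying the deposited FPKM by transcript length returned the counts at the total of the mRNA table. All columns of per-sample values were used, and 0 were left aside.

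Counts were summed per gene with GENCODE M21 and divided by the total of the mRNA table. The totals, from BMM-ABs to mOC-ABs, were 9100082, 7387317 and 7705592 reads, where 3 reads are 0.330, 0.406 and 0.389 RPM (reads per 1000000). Ratios carry exact binomial (Clopper-Pearson) 95% intervals and shares Wilson intervals. PCR reads without molecular identifiers are not independent molecules, so both cover counting error only. Against 0 reads a ratio is a lower bound computed against 3 reads per library. With 1 library per group no test was made. A ratio above 2 or below 0.5 was counted, after the fold limit of the study, over 12713 genes with at least 20 reads in all. The members, lists and markers were chosen with earlier results of these data known. Named were the 8 members, their transcripts with at least 10% of the gene in a library, listed pathway genes past 2-fold (1 of them is not reported here), and the 3 nearest genes of each member past 2-fold (not given for Oscar, which has bounds only) by the Euclidean distance of G1 and G2 log2 ratios. Motifs in coding sequences were searched in GENCODE M21 transcripts and promoters in the RefSeq table of GRCm38.p6. The alternatives were other library totals, size factors, the upper quartile (percentile 75), summed FPKM, protein-coding transcripts, a pseudocount of 1 RPM, lncRNA-table reads added, other read limits, a fold limit of 1.5 and whole intervals past the limit. The scripts were tested on simulated data and used Python 3.11.15, numpy 2.4.6, pandas 2.3.3, scipy 1.17.1, matplotlib 3.10.9 and biopython 1.88.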

Additional observations from a re-analysis of the deposited data

How the results depend on the processing

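Each value rests on 1 library per group, no replicate could be left out, and the reads of overlapping transcripts were divided by a model. No paired analysis was possible because each group has 1 library. Of 168 member ratios under the alternatives, 141 stayed within the counting interval, 25 moved and 2 reversed. The 2 reversed ratios were those of Pirb in G2 and G3. The sign changed in 8. They were Pirb in all 3 comparisons, Btk in G2 and G3, Syk in G2, and Tyrobp and Trem2 in G3. Some ratios could not change. Adding lncRNA-table reads left every member as it was, since none overlaps a member locus. Oscar and Plcg2 list 1 transcript each, a coding one, so that the protein-coding setting left them as they were. Summed FPKM also left them as they were but for rounding. These fixed ratios are among the 141. With protein-coding transcripts only, the log2 ratio of Pirb turned from −2.28 to 3.11 in G2, computed against 3 reads, and from −1.65 to 0.23 in G3, since the retained introns are then left out. That setting gave 2 members above 2-fold in G1, 2 in G2, and 0, 1 and 0 below 0.5 in G1, G2 and G3. Trem2 crossed the limit in G1, so that 0 members were below 0.5 with the upper quartile, with summed FPKM and with whole intervals, and 4 with a limit of 1.5. Fcer1g lost its G2 call with size factors (log2 ratio −0.97), the upper quartile (−0.94) and whole intervals, each of which left 2 members below 0.5, and Trem2 lost its own with protein-coding transcripts only. The pseudocount and whole intervals left 0 members above 2-fold in G1, and whole intervals left 0 below 0.5 in G3. Of the pathway genes, 15 were below 0.5 in G1 with both tables as total. Whole intervals past the limit left 0, 2 and 1 above in G1, G2 and G3, and 4 below in G1 and 5 in G3. The limit of 1.5 gave 7, 9 and 10 above in G1, G2 and G3, and 19 and 29 below in G1 and G2. The pseudocount gave 1 above in G1, 3 above in G3 and 7 below in G3, and at least 100 reads gave 1 above in G1. The same main transcript was found in every library for 7 of 8 members, all but Pirb, and for 8 with protein-coding transcripts only. Of 33 main-transcript shares under the alternatives, 21 moved. Oscar, with 56 reads, and Pirb, with 234, are limited by depth.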
